A study of Mus musculus with 12 samples.

Results

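The core cardiac transcription factors examined here are 10 genes, out of 21959 in the count table, measured in ventricles of mice with and without the lipid transfer protein gene Vps13c. The genes were Gata4, Gata6, Nkx2-5, Tbx5, Tbx20, Mef2a, Mef2c, Mef2d, Hand2 and Srf, found by matching their symbols to the Ensembl identifiers of the table. The knockout group (Vps13c-cKO) held 6 male mice, 7 weeks old, in which Vps13c had been knocked out in cardiac tissue only, and the control group held 6 wild-type (WT) males of the same age. All 12 mice ate chow, and each library came from the ventricle of a separate mouse. The labels do not say which driver or exons the knockout used, or whether WT mice carried the driver. Vps13c itself lay at 54.6 to 68.6 CPM (counts scaled to library size) in WT and at 16.3 to 20.3 CPM in Vps13c-cKO, so that all 12 libraries matched their labels.

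These factors are DNA-binding proteins that together switch on the genes of heart muscle. GATA4 and GATA6 are zinc finger proteins, NKX2-5 is a homeodomain protein, TBX5 and TBX20 are T-box proteins, HAND2 is a basic helix-loop-helix protein, and the MEF2 proteins and SRF share the MADS-box type of DNA-binding domain. They form the heart in the embryo, bind many of the same enhancers, and stay expressed in the adult ventricle, where GATA4, MEF2 and SRF are also known for their part in the growth response of heart muscle to load. Much of their control is on the protein (phosphorylation, location in the cell, partners such as myocardin and class II histone deacetylases), which RNA counts do not measure.

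The libraries held 13348018 to 15562942 gene counts in WT and 12484523 to 14188716 in Vps13c-cKO. Genes with at least 1 count numbered 14861 to 15024 in WT and 15137 to 15406 in Vps13c-cKO, ranges that did not overlap, and mitochondrially encoded genes took 29.2% to 31.4% and 30.6% to 32.2% of counts. The part of these differences in the results was not tested, beyond a fit without the mitochondrially encoded genes, in which 0 core factors passed. Cardiomyocyte marker genes were present in every library, with 12 of 12 markers tested and a summed level of 67514 to 73270 CPM in WT and 65179 to 70206 CPM in Vps13c-cKO. The library of WT replicate 4 stood apart by genes of atrial muscle. It had 29.3 CPM of the atrial light chain gene Myl7, 8.24 CPM of the atrial calcium pump inhibitor gene Sln and 31.3 CPM of Myl4. In the other 11 libraries these genes reached at most 0.353, 0.0706 and 2.19 CPM. Results on the core factors are therefore also given without that library.

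Regulatory sequence next to a gene's start was examined for the binding motifs of the factors themselves, since members of the set are known to control one another. RefSeq windows of 250 bases before a start (build GRCm38.p6) were at hand for 7 of the 10 genes, 9 windows in all. The windows were searched on both strands for the CArG box bound by SRF and for the MEF2 site. The letters AGATAA stood for the zinc finger factors, the letters TNAAGTG for the homeodomain factor, the letters GGTGTNA for the T-box factors, and the letters CATCTG for HAND2 with its partners. No match overlapped another. Only windows of Srf, Hand2 and Mef2c held a match to these patterns. Other forms of the motifs were not searched, so bases without a match may still hold a site. The windows of Srf and Hand2 are shown because these genes came nearest to the threshold of the comparison below, with the matches in capitals. In the Srf window (chr17:46556163-46556412, minus strand) both capital stretches are CArG boxes, from -82 to -73 and from -62 to -53 relative to the start. In the Hand2 window (chr8:57320733-57320982, plus strand) the first is CATCTG and the second AGATAA read on the other strand.
Srf: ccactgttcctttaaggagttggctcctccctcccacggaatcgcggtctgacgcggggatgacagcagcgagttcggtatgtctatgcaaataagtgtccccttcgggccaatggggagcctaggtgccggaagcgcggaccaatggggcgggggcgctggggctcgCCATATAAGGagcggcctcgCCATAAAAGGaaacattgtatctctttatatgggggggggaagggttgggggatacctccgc
Hand2: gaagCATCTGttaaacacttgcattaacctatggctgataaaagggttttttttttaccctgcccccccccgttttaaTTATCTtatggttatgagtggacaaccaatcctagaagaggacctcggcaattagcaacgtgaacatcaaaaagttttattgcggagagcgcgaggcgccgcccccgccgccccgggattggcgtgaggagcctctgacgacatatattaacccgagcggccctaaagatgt
Of 32851 such windows over all genes, 1.47% held a CArG box, 9.99% held AGATAA and 14.4% held CATCTG. A match describes letters in the window and not a bound site.

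In WT ventricle all 10 factors were readily counted, at 154 to 3957 reads per library over both groups. By mean level the lowest of them stood above 47.3% of the 12384 genes that passed the filter on low counts, and the highest above 96.6%. To compare genes with one another, CPM were divided by the summed length of all annotated exons in kilobases. On this scale Mef2d was the most abundant in WT, at 25.6 ± 2.54 (SD, n = 6) CPM per kilobase. Gata4 followed at 21.8 ± 2.17, Mef2a at 17.2 ± 1.21, Srf at 15.6 ± 0.725 and Tbx20 at 12.0 ± 0.645. Nkx2-5 lay at 8.84 ± 1.08, Gata6 at 8.53 ± 0.616, Mef2c at 6.16 ± 0.535, Hand2 at 6.12 ± 0.939 and Tbx5 at 5.99 ± 0.471. The order of the first 5 held in each of the 6 WT mice, although the ranges of Mef2d and Gata4, of Gata4 and Mef2a, and of Mef2a and Srf overlapped between mice. Nkx2-5 lay above Gata6 in 4 of 6 WT mice, Mef2c above Hand2 in 2 and Hand2 above Tbx5 in 3, so the order within these pairs was not beyond their spread.

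**Figure D1:**
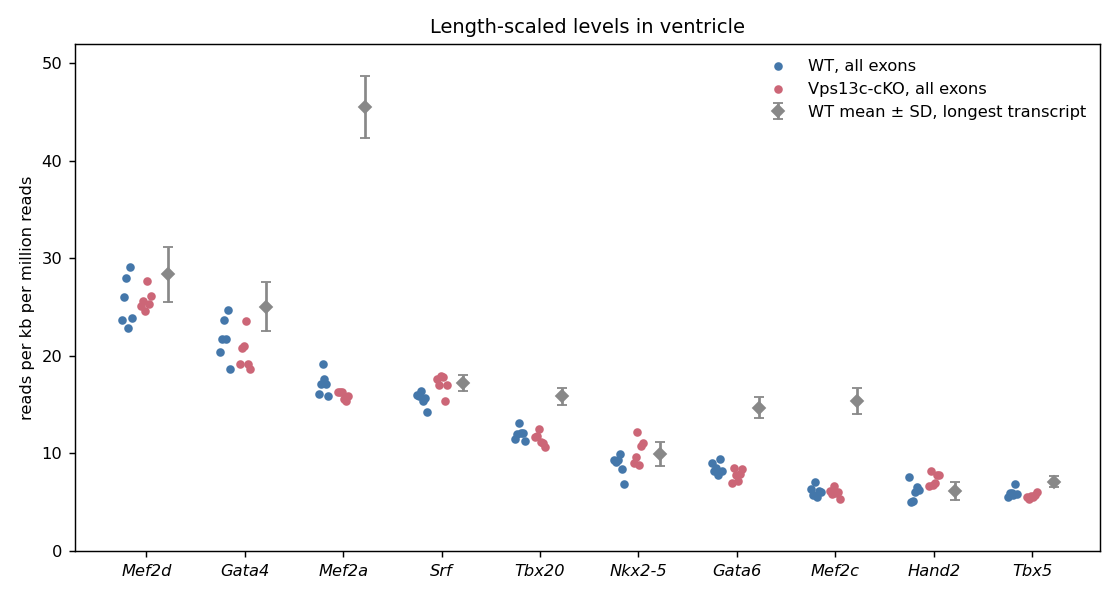
Levels of the 10 factors on a linear axis in CPM per kilobase of exon, each point 1 mouse, blue for WT and red for Vps13c-cKO; grey diamonds give the WT mean ± SD when the length of the longest transcript is used instead. Mef2d and Gata4 lead and Tbx5 is lowest over all exons, while Mef2a moves from 17.2 to 45.6 with the shorter length.

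The place of the MEF2 genes in this order rests on the length chosen. Mef2a and Mef2c have many alternative exons, 14.7 and 15.7 kilobases in all, against 5.54 and 6.28 in their longest transcripts. With the longest transcript Mef2a led at 45.6 ± 3.20 (SD, n = 6) and Mef2c rose to the sixth place at 15.4 ± 1.34. Which isoforms these ventricles used cannot be read from counts per gene. Mef2a and Srf stood in opposite order in the 2 groups over all exons: Mef2a was above Srf in 6 of 6 WT mice and in 1 of 6 Vps13c-cKO mice.

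The main question was whether the RNA of these factors differed when Vps13c was lost. Of the 10 factors, 0 passed the threshold, an adjusted p under 0.05 by the quasi-likelihood test of edgeR, where 10.7% of all tested genes did. At an unadjusted p under 0.05 there were 5, with Hand2, Srf and Nkx2-5 higher and Mef2a and Gata6 lower, against 23.8% of all tested genes. The WT and Vps13c-cKO groups overlapped for each of the 10, where 4.93% of tested genes had groups that did not. Their median log2 fold change was -0.05 (all tested genes, 0.00), and their median change regardless of sign was 0.10 (all tested genes, 0.09). Without WT replicate 4 the count was also 0, with 5 at an unadjusted p under 0.05 and adjusted p-values of 0.0757 (Gata6) to 0.841 (Mef2d).

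The estimates were narrow enough to bound a change. For all 10 factors the 95% interval of the fold change lay within 1.5-fold in both directions, as it did for 85.8% of tested genes. The widest intervals were those of Hand2 and Nkx2-5, the least counted of the set, and the upper bounds of the other 8 reached 17.6%. Across the 10, the intervals ran from 15.9% below to 37.0% above the WT level. In bulk ventricle, fewer cells of a type and less RNA per cell cannot be told apart, and this holds for every value here.

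**Figure D2:**
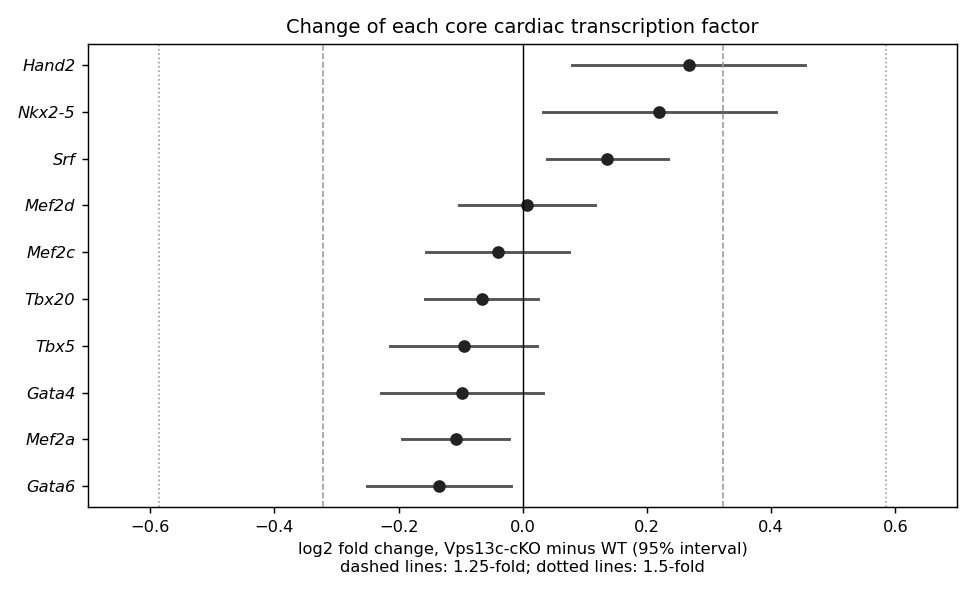
Log2 fold change of each factor, Vps13c-cKO minus WT, with its 95% interval (horizontal bars) from the edgeR fit on 6 against 6 mice; the outer dotted lines mark 1.5-fold. All intervals lie inside the dotted lines, and those of Hand2 and Nkx2-5 cross the inner dashed line on the right.

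Among the GATA factors, Gata4 (ENSMUSG00000021944, chromosome 14), which is needed for heart tube formation and for the hypertrophic response, had a lowest, median and highest level of 73.0, 84.8 and 96.5 CPM in WT. In Vps13c-cKO these were 72.8, 78.2 and 92.2 CPM. The ranges nearly coincide, and the log2 fold change was -0.10 ± 0.06 (SE, adjusted p = 0.378). Gata6 (ENSMUSG00000005836, chromosome 18), its closest relative in the heart, had 50.7, 54.3 and 61.6 CPM in WT and 45.5, 51.0 and 55.1 CPM in Vps13c-cKO. The 2 highest values were WT and the 2 lowest Vps13c-cKO, and the log2 fold change was -0.13 ± 0.06 (SE, adjusted p = 0.137; -0.16 ± 0.06 and adjusted p = 0.0757 without WT replicate 4, the lowest WT library for this gene). The balance of the pair, the log2 ratio of Gata4 to Gata6 per kilobase of all exons, averaged 1.35 ± 0.14 over WT mice and 1.39 ± 0.20 over Vps13c-cKO mice (SD, 6 mice a group, two-sided exact permutation p = 0.695). The level of this ratio depends on the gene lengths used, while the difference between the groups does not. Leaving out Vps13c-cKO replicate 4 turned the sign of that small difference, from 0.041 to -0.026.

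Nkx2-5 (ENSMUSG00000015579, chromosome 17), the homeodomain factor that partners GATA4 and TBX5 on cardiac promoters, was one of the 2 least counted factors, with 154 to 298 reads per library. It lay at 11.8, 15.8 and 17.1 CPM (lowest, median, highest) in WT and at 15.2, 17.6 and 21.03 CPM in Vps13c-cKO. The 3 highest of the 12 libraries were Vps13c-cKO, and the log2 fold change was 0.22 ± 0.09 (SE, adjusted p = 0.132). Without WT replicate 4, the highest WT library for this gene, the log2 fold change was 0.25 ± 0.09 (SE, adjusted p = 0.0913). The spread between WT mice, 12.2% of the mean, compares with 6.83% from counting alone.

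Neither T-box gene passed the threshold. Tbx5 (ENSMUSG00000018263, chromosome 5), known from Holt-Oram syndrome and from its control of chamber and conduction genes, lay at 25.9, 27.5 and 32.3 CPM in WT and at 24.7, 26.1 and 28.0 CPM in Vps13c-cKO. The highest value, in WT replicate 5, lay apart from the remaining WT mice, and the log2 fold change was -0.10 ± 0.06 (SE, adjusted p = 0.334; -0.05 without that library). Tbx20 (ENSMUSG00000031965, chromosome 9), which is needed to keep the adult heart's contractile programme, had 136, 144 and 158 CPM in WT and 128, 137 and 150 CPM in Vps13c-cKO. Its log2 fold change was -0.07 ± 0.04 (SE, adjusted p = 0.392). The log2 ratio of Tbx5 to Tbx20 per kilobase of all exons averaged -1.01 ± 0.12 over WT mice and -1.03 ± 0.13 over Vps13c-cKO mice (SD, 6 mice a group, two-sided exact permutation p = 0.719). Here too the lengths used set the level of the ratio but not the difference between the groups. The difference changed sign, to 0.015, without WT replicate 5 and to 0.00147 without Vps13c-cKO replicate 3.

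**Figure D3:**
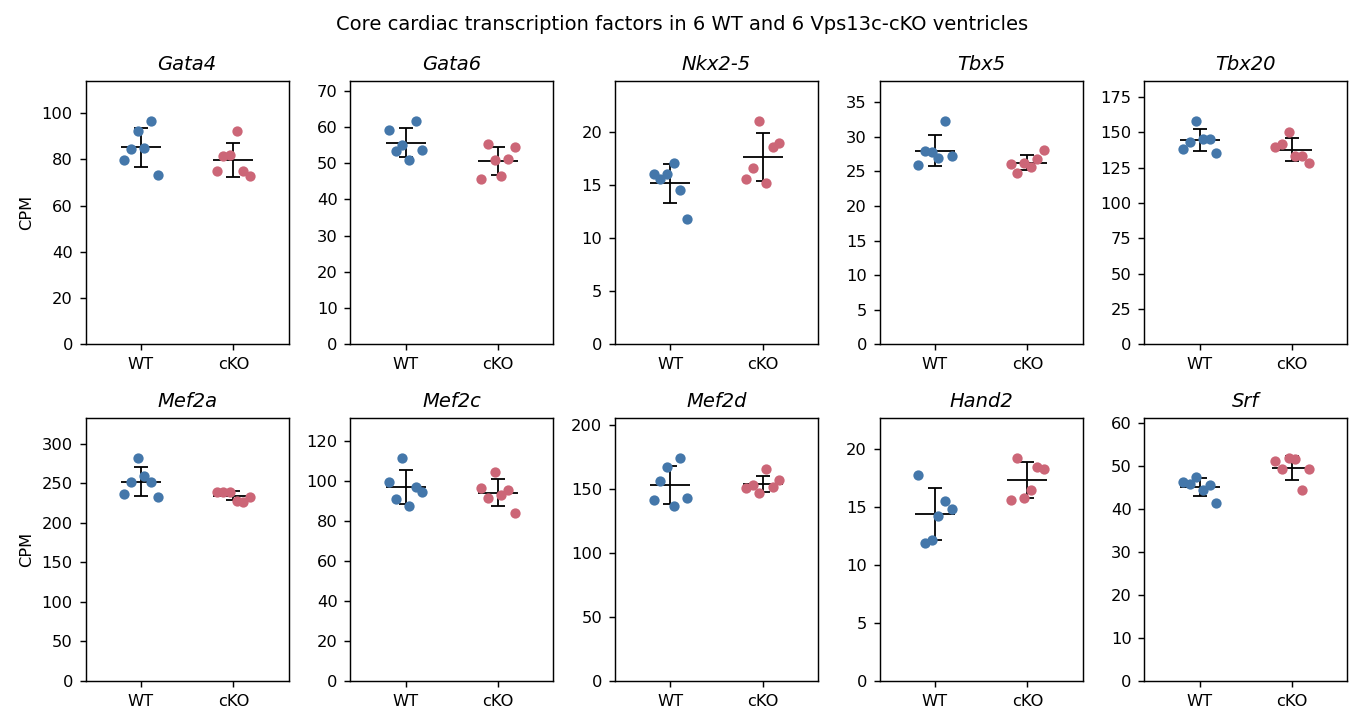
CPM of each factor on linear axes that start at 0, each point 1 mouse (6 WT in blue, 6 Vps13c-cKO in red), with the mean as a bar and the SD as whiskers. The groups overlap in every panel; the Vps13c-cKO points of Hand2 and Srf sit mostly above the WT points, and those of Mef2a all below the WT median, 2 of them below every WT point.

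MEF2 proteins bind an AT-rich site in many muscle genes and are held back by class II histone deacetylases until these leave the nucleus. Mef2a (ENSMUSG00000030557, chromosome 7) had 233, 252 and 282 CPM (lowest, median, highest) in WT and 226, 236 and 239 CPM in Vps13c-cKO. All 6 Vps13c-cKO libraries lay below the WT median, and they were close together, with a spread of 2.48% of the mean against 7.03% in WT. The log2 fold change was -0.11 ± 0.04 (SE, adjusted p = 0.104), and without WT replicate 6, the lowest WT library, it passed the threshold at -0.13 (adjusted p = 0.0432). In Mef2a, 302 exonic bases overlap those of Lysmd4 on the other strand, at -0.18 ± 0.07 (SE, adjusted p = 0.107). Without all other genes of chromosome 7, Mef2a was at an adjusted p of 0.100.

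Mef2c (ENSMUSG00000005583, chromosome 13), the family member needed first in the embryonic heart, lay at 87.3, 95.8 and 111 CPM in WT and at 83.8, 94.2 and 105 CPM in Vps13c-cKO (log2 fold change -0.04 ± 0.06 SE, adjusted p = 0.728). Mef2d (ENSMUSG00000001419, chromosome 3), which is tied to stress-induced remodelling in the adult heart, lay at 137, 149 and 174 CPM in WT and at 147, 152 and 165 CPM in Vps13c-cKO (0.01 ± 0.05 SE, adjusted p = 0.959). Its Vps13c-cKO values lay inside the WT range in all 6 mice. Exons of Mef2d and Gata6 also overlap genes on the other strand, by 531 and 93 bases. Of the 3 genes' summed reads per kilobase of all exons, Mef2a made up 35.2% ± 1.80 of WT and 33.5% ± 1.01 of Vps13c-cKO reads, Mef2c 12.6% ± 0.836 and 12.6% ± 0.946, and Mef2d 52.2% ± 2.00 and 54.0% ± 1.62 (SD, 6 mice a group). Which gene holds the largest share rests on the length chosen. With the longest transcript the WT shares were 51.0% for Mef2a, 17.3% for Mef2c and 31.7% for Mef2d. With no length they were 50.25%, 19.3% and 30.5%. None of the 3 shares passed a two-sided exact permutation test adjusted over the 3 (adjusted p = 0.192, 0.959 and 0.192). That outcome rests on WT replicate 5. Without that library the adjusted p was 0.0130 for Mef2a, at a difference of -2.20 percentage points, and 0.0390 for Mef2d, at 2.40. Without WT replicate 4 the differences were -1.08 and 1.23 (adjusted p = 0.370 for both).

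Hand2 (ENSMUSG00000038193, chromosome 8) showed the highest estimate of the set. It is best known for the right ventricle and neural crest of the embryo and is also expressed outside the muscle cells of the adult heart. Its lowest, median and highest levels were 11.9, 14.5 and 17.8 CPM in WT and 15.6, 17.4 and 19.2 CPM in Vps13c-cKO. Of the 6 WT libraries 5 lay below all Vps13c-cKO libraries, the exception being WT replicate 1 at 17.8 CPM. The log2 fold change was 0.27 ± 0.09 (SE, adjusted p = 0.0616, 166 to 262 reads per library), and without WT replicate 1 it was 0.33 (adjusted p = 0.0134). With sample weights in limma-voom the adjusted p was 0.0416. Without WT replicate 4 the values were 0.26 ± 0.10 (SE) and adjusted p = 0.0892. Of the 2351 exonic bases of Hand2, 461 overlap Hand2os1 on the other strand, whose reads cannot be told apart from those of Hand2 without strand.

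Srf (ENSMUSG00000015605, chromosome 17), whose protein binds CArG boxes and couples actin dynamics and growth signals to muscle genes, gave the most even WT values among the 10. It lay at 41.3, 45.6 and 47.4 CPM in WT and at 44.5, 50.2 and 51.9 CPM in Vps13c-cKO. Of the 6 Vps13c-cKO libraries 5 lay above all WT libraries, and Vps13c-cKO replicate 5 lay inside the WT range. The log2 fold change was 0.14 ± 0.05 (SE, adjusted p = 0.0676), and without Vps13c-cKO replicate 5 it was 0.17 (adjusted p = 0.0236). When only genes with a mean of 5 CPM or more were tested, the adjusted p was 0.0493. Without WT replicate 4 it was 0.103.

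Several cofactors of these proteins changed. Of 24 tested cofactors, 2 were higher and 5 lower, where 5.65% of tested genes were higher and 5.10% lower, and their median log2 fold change was 0.01. The higher count was 1 without WT replicate 1, 3 or 6 or Vps13c-cKO replicate 2 or 4 and 0 without Vps13c-cKO replicate 5, and the lower count was 3 without WT replicate 2 or 3. Fhl2, a LIM protein that binds SRF and also sits in the sarcomere, averaged 1145 ± 47.9 CPM in WT and fell to 972 ± 73.0 CPM (SD over 6 mice; log2 fold change -0.24 ± 0.04 SE, adjusted p = 0.000870). Elk3, an ETS protein that binds beside SRF, fell by 0.28 ± 0.06 (SE) on the log2 scale and Cited2, a coactivator of GATA4 and other factors, by 0.33 ± 0.09. The histone deacetylase gene Hdac5, whose product represses MEF2, averaged 74.7 ± 5.26 CPM in WT and fell to 65.6 ± 3.13 CPM (SD over 6 mice; log2 fold change -0.19 ± 0.05 SE, adjusted p = 0.0134). Its relatives Hdac4 and Hdac9 did not pass, at -0.10 ± 0.05 and -0.00 ± 0.08 (adjusted p = 0.226 and 0.982). Zfpm2, the GATA4 partner also called FOG2, fell by 0.20 ± 0.06 (SE; adjusted p = 0.0412), a call that held only without WT replicate 4 or 5 or Vps13c-cKO replicate 4 when single libraries were left out, and that ended with the replicate number as a block (adjusted p = 0.0572). Cited2 lost its call without WT replicate 2 or 3 (adjusted p = 0.0606 and 0.0574). The SRF coactivators were not called, with Myocd at 0.13 ± 0.09, Mrtfa at 0.10 ± 0.10 and Mrtfb at 0.02 ± 0.07 (SE; adjusted p = 0.392, 0.605 and 0.918). The higher cofactors were Hopx, an NKX2-5-dependent inhibitor of SRF, at 0.17 ± 0.05 and Camta2, a partner of NKX2-5, at 0.15 ± 0.04 (SE; adjusted p = 0.0213 and 0.0252). Both calls depended on single libraries, since Hopx lost its call in 4 of 12 leave-outs (WT replicate 1 or 6, Vps13c-cKO replicate 2 or 5; adjusted p up to 0.0553) and Camta2 in 3 (WT replicate 3, Vps13c-cKO replicate 4 or 5; up to 0.0739).

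Further transcription factors of the heart were examined in the same way. Of 28 tested genes on that list, 1 was higher (3.57%, against 5.65% of all tested genes) and 2 were lower (7.14%, against 5.10%), shares near those of all tested genes, and the median log2 fold change was -0.11. Without any 1 of WT replicates 4 and 6 and Vps13c-cKO replicates 3, 4 and 6 the higher count was 0, and without any 1 of WT replicates 1 and 2 and Vps13c-cKO replicates 1, 2, 4 and 5 the lower count was 1. Hey2, a Notch target that marks compact ventricular muscle, averaged 6.62 ± 0.869 CPM in WT and fell to 4.84 ± 0.721 CPM (SD over 6 mice; log2 fold change -0.46 ± 0.12 SE, adjusted p = 0.0145) and was called with each library left out in turn. Mitf fell by 0.13 ± 0.04 (SE) on the log2 scale (adjusted p = 0.0485), and held its call only without WT replicate 4 or 6 or Vps13c-cKO replicate 3 or 6. Prdm16, a factor of compact myocardium, was at -0.20 ± 0.07 (SE, adjusted p = 0.0819; 0.0495 without WT replicate 5).

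Genes known as targets of the factors changed in both directions. Their counts stand against 5.65% of all tested genes that were higher and 5.10% that were lower. The lists, also those of cofactors and further factors, were chosen with earlier results of these data known. Their shares therefore describe the listed genes and are no test of targets as a class. These lists share genes, and many of their genes answer to several factors. Of 20 tested targets of GATA4, NKX2-5 and TBX5, 3 were higher (15%) and 7 lower (35%), with a median log2 fold change of -0.09. Nppa and Nppb, which encode the natriuretic peptides, rose by 2.12 ± 0.21 and 1.16 ± 0.09 (SE) on the log2 scale, while Tnni3 (cardiac troponin I) fell by 0.22 ± 0.03 and Atp2a2 (the calcium pump SERCA2) by 0.20 ± 0.03. Myh6 was at -0.06 ± 0.04 (adjusted p = 0.394). Of 20 tested MEF2 targets, 5 were higher (25%) and 2 lower (10%), with a median of 0.05. The higher count was 3 without any 1 of replicates 2, 3 and 5 of either group. The lower count was 1 without other chromosome 7 genes, because that fit leaves out Cox6a2 itself. Cox6a2 lost its call in 0 of 12 leave-outs. Des (desmin) averaged 1160 ± 49.6 CPM in WT and rose to 1390 ± 23.4 CPM (SD over 6 mice), and Hspb7, a small heat shock gene, rose by 0.19 ± 0.03, whereas Cox6a2 fell by 0.29 ± 0.04 and Ppargc1a by 0.47 ± 0.07. Ckm (muscle creatine kinase) was at 0.04 ± 0.04 (adjusted p = 0.660). Of 24 tested SRF targets, 6 were higher (25%) and 3 lower (12.5%), with a median of 0.10, and 5 and 5 without WT replicate 4. Ankrd1 rose by 1.47 ± 0.09, Acta1 (skeletal actin) by 1.82 ± 0.14, Tpm2 by 0.71 ± 0.09 and Flnc by 0.35 ± 0.04. The 3 lower genes were Tpm1 at -0.16 ± 0.03, Filip1l at -0.20 ± 0.06 and Fhl2, given above as a cofactor. Filip1l lost its call in 4 of 12 leave-outs. Srf itself is also on this list. Without WT replicate 4 the GATA4, NKX2-5 and TBX5 targets numbered 3 higher and 7 lower, the MEF2 targets 5 and 2, the cofactors 2 and 5, and the further factors 0 and 2. The immediate early target Egr1 was at 0.11 ± 0.18 (adjusted p = 0.789).

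**Figure D4:**
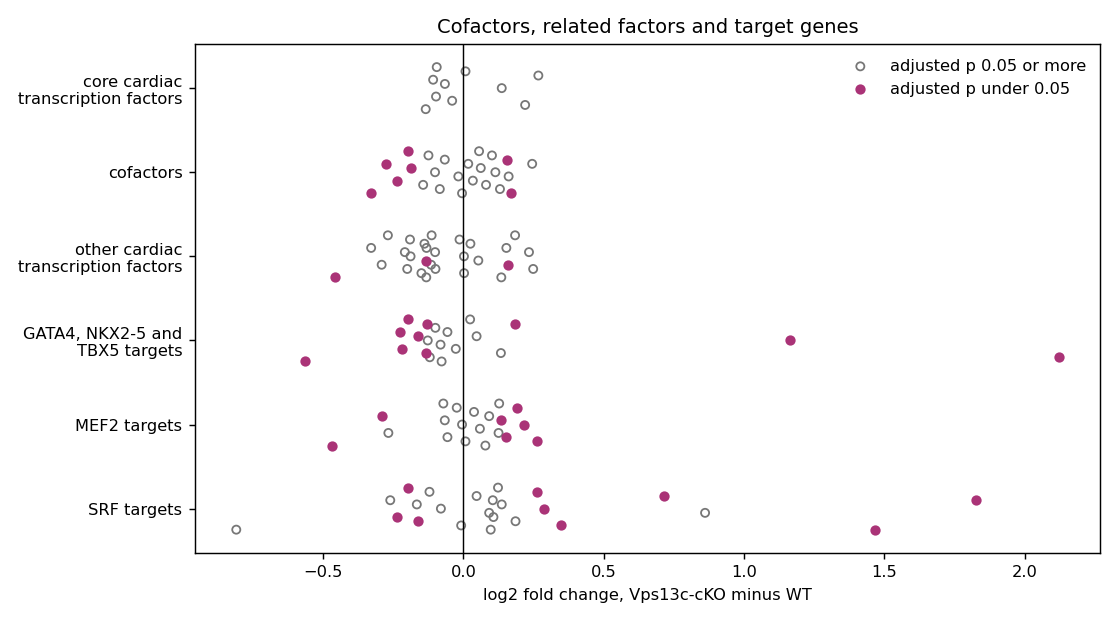
Log2 fold change (Vps13c-cKO minus WT, linear axis) of every tested gene on the list of core factors and on the 5 further lists; filled points have an adjusted p under 0.05 by edgeR and open points do not, and vertical scatter within a row has no meaning. The 10 core factors are all open points near 0, while filled points on the target lists reach 2.12 (Nppa). All lists were chosen with earlier results of these data known.

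Markers of other cell types moved in the same libraries, read here against the 5.65% of all tested genes that were higher and the 5.10% that were lower. On lists this short a single call, as among endothelial markers, lies near those shares. Of 10 fibroblast markers 6 rose and 0 fell, and their summed level was 1749 to 2046 CPM in WT and 2009 to 2242 CPM in Vps13c-cKO. Of 10 macrophage markers 4 rose and 0 fell (252 to 345 and 319 to 374 CPM). Of 12 cardiomyocyte markers 0 rose and 3 fell (Tnnt2, Tnni3 and Myl2). Of 10 endothelial markers only Cldn5 passed, and it fell (852 to 994 and 867 to 902 CPM). Of 9 tested markers of smooth muscle cells and pericytes 1 rose and 2 fell (1631 to 1946 and 1569 to 1638 CPM). Of 4 tested atrial markers 2 rose, Nppa and Pam (634 to 794 and 724 to 846 CPM). Most of that sum was Pam, at 628 to 712 CPM in WT and 705 to 819 CPM in Vps13c-cKO. The atrial genes Myl7, Sln and Myl4 were high in WT replicate 4 alone, as given above. Of 4 tested markers of skeletal fibres 3 rose, Acta1, Tnni2 and Tnnt3 (775 to 949 and 1067 to 1540 CPM). Most of that sum was Ckm, at a mean of 641 CPM in WT and 658 CPM in Vps13c-cKO, and Acta1, at 194 and 686 CPM. Erythroid, Schwann and epicardial cell markers gave 0 calls. Gata4, Gata6, Tbx20, Mef2c, Hand2 and Srf, among others, are expressed in several of these cell types as well as in muscle. The part of cell make-up in the values of the 10 core factors was not tested. Of 10 skeletal fibre markers 6 were below 1 CPM, Myh4, Myh1, Myh2, Actn3, Pvalb and Tnnc2, the last with 0 counts in all libraries. Of 6 epicardial markers 5 were below 1 CPM.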

How the data were processed

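Poly-A RNA was sequenced from 12 ventricles, and the authors deposited 1 table of raw read counts, with genes as rows and mice as columns, per the file headers. Tools listed in the submitters' processing notes are HTSeq 0.9.1, HISAT2 2.1.0 and fastp 0.22.0, with the build GRCm39. No source used here gives the annotation release or strand setting, and the labels' protocols mention neither strand marking nor molecular identifiers. Groups and replicate numbers came from the sample titles, 12 columns were matched by name, and 0 went unused.

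Symbols, chromosomes and exon lengths came from GENCODE M21 (build GRCm38), which named 21851 of 21959 gene IDs and all 10 members. As the counts were made on another build, no gene coordinates are given. Promoter windows came from RefSeq (GRCm38.p6).

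The 12384 genes passing filterByExpr entered the quasi-likelihood test (two-sided) of edgeR 4.0.16 (R 4.3.3, TMM factors), with Benjamini-Hochberg adjustment over all of them and a threshold of 0.05. CPM use TMM-scaled library sizes. A positive log2 fold change means higher in Vps13c-cKO. Ratios within families were tested by exact permutation over mice (scipy 1.17.1), where the smallest possible p is 0.00216. Of the fits, only the edgeR fit with group alone was tested on simulated counts, drawn with the same dispersion for all genes. Alternatives were other scaling factors, filters, DESeq2 1.42.0, limma 3.58.1 (voom), the replicate number as a block, each library left out, other lengths, and, added after seeing the data, leaving out chromosome 7.

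Members and lists were chosen with earlier results of these data known. Named genes are Vps13c, the members, up to 4 genes of each list with the smallest p, and 13 set by name; some list genes are counted but not reported singly here. Hopx, Camta2, Tpm1, Filip1l, Corin, Myl9, Lysmd4, Myl7, Sln and Myl4 were chosen after their values were seen, as were the 2 promoter windows. Genes most like a member were to be named only for members past the threshold, of which there were 0. Same-numbered mice of the groups did not deviate together.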

Additional observations from a re-analysis of the deposited data

Results flagged for a closer look

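In a group of 6 mice, a single value was marked where its gap to the nearest other mouse exceeded 0.625 of the group's whole range. Of 120 groups examined 9 were marked, and chance marks about 1 in 20. Among the core factors, Tbx5 was highest in WT replicate 5, at 32.3 CPM against 25.9 to 27.9 in the other WT mice, and Srf was lowest in Vps13c-cKO replicate 5, at 44.5 CPM against 49.2 to 51.9. Among cofactors and targets, Elk3 was lowest in WT replicate 6 (31.8 CPM against 38.5 to 42.2), Corin lowest in Vps13c-cKO replicate 3 (196 against 238 to 260) and Cox6a2 highest in Vps13c-cKO replicate 5 (476 against 434 to 448). Ankrd1 was lowest in Vps13c-cKO replicate 6 (680 CPM against 845 to 939) and Myl9 highest in WT replicate 3 (16.3 against 11.1 to 12.9). WT replicate 4, the library with atrial transcripts, was highest among WT mice for Hspb7 (1295 CPM against 1158 to 1192) and Acta1 (277 against 159 to 194).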

How the results depend on the processing

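The count of core factors past the threshold stayed at 0 under DESeq2, limma-voom without weights, the other scaling factors, no filter, the replicate block and without other chromosome 7 genes. It was 1 higher with a minimum mean of 5 CPM (Srf, with fewer genes tested) and 1 higher with sample weights (Hand2). With single libraries left out it ranged from 0 to 1 higher and from 0 to 1 lower. Over the same runs the log2 fold change ranged from -0.073 to 0.00348 for Mef2c, from -0.023 to 0.048 for Mef2d, from -0.073 to 0.035 for Hdac9 (0.000665 with a minimum of 5 CPM), from -0.031 to 0.065 for Mrtfb and from -0.11 to 0.19 for Egr1; the other 8 core factors kept their sign in all 22 alternative fits. The Mef2a share differed by -2.20 to -1.08 percentage points, that of Mef2c by -0.319 to 0.229 and that of Mef2d by 1.23 to 2.40, and the log2 ratios by -0.026 to 0.088 (GATA) and -0.064 to 0.015 (T-box). For Mef2c the share differed by 0.205 with the longest transcript and by 0.230 with no length. With the longest transcript the WT levels per kilobase were 25.1 for Gata4, 14.7 for Gata6, 45.6 for Mef2a, 15.4 for Mef2c, 28.4 for Mef2d, 9.96 for Nkx2-5, 17.2 for Srf, 15.9 for Tbx20 and 7.11 for Tbx5.

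Over the libraries left out, cofactors numbered 0 to 3 higher (0 without Vps13c-cKO replicate 5) and 3 to 5 lower (3 without WT replicate 2 or 3), other factors 0 to 1 higher (0 without WT replicate 4 or 6 or Vps13c-cKO replicate 3, 4 or 6) and 1 to 3 lower. MEF2 targets numbered 3 to 5 higher (3 without replicate 2, 3 or 5 of either group) and SRF targets 4 to 7 higher and 2 to 5 lower (5 without WT replicate 4). Other factors were 1 lower with upper-quartile factors or a minimum of 5 CPM, and MEF2 targets 1 lower without chromosome 7, which carries Cox6a2. Where not named, the cause was not tested. The replicate number pairs no mice by the labels, and correlations of same-numbered mice ran from -0.0396 to 0.0618. With the replicate block the paired difference of the Mef2a share was -1.71 (adjusted p = 0.188, exact sign-flip test), and 0 core factors passed. Depth was lowest for Nkx2-5 and Hand2, where counting error was 6.83% and 7.02% of the WT mean against a spread between WT mice of 12.2% and 15.3%.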

Other observations

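Several heart factors, best known from the embryo or the pacemaker, were at or near 0 in these ventricles and could not be tested. Hand1, the left ventricular partner of Hand2 in the embryo, Isl1, a factor of the second heart field, Irx6 and Nkx2-6 had 0 reads in all 12 libraries, which allows up to 0.0182 CPM (3 counts over the summed libraries, counting error only). Gata5, the third GATA factor of the heart, had 2 reads in WT and 0 in Vps13c-cKO, and Mef2b, the remaining MEF2 gene, had 10 and 9. Shox2, a pacemaker factor, had 48 reads in WT and 38 in Vps13c-cKO.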
